A study of Mus musculus with 9 samples.

Results

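Newborn lenses hemizygous for the *Le-Cre* transgene were compared with non-transgenic *FVB/N* newborn lenses, and the comparison used the 3 *Le-Cre* and the 3 *FVB/N* pools, which are 6 of the 9 pools sequenced. The samples were taken by the genotype and replicate number in their labels, and 15557 of the 47729 listed genes had enough counts to be tested. The other 3 pools came from hemizygous *P0-3.9GFPCre* lenses, which entered the model to improve the estimate of the spread. They are set beside the *Le-Cre* values for some of the genes and lists. Each pool held 6 whole lenses from 3 mice on the day of birth (postnatal day 0), and all 3 lines share the *FVB/N* background. The *Le-Cre* transgene uses the *Pax6* P0 promoter with the ectodermal enhancer to produce CRE recombinase with a nuclear localization signal, together with GFP from an internal ribosome entry site, and the line in use descends from 1 of 2 founders and carries its insertion on chromosome 16. The *P0-3.9GFPCre* transgene uses the same promoter type for a fusion of GFP and CRE. The labels name no floxed allele. CRE, GFP and the insertion differ together between *Le-Cre* and *FVB/N*, and their parts in any difference cannot be told apart.

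The lens is a transparent tissue of 2 cell forms, an anterior sheet of dividing epithelial cells and a mass of elongated fibre cells that fill with crystallins and lose their organelles, all enclosed in a collagen IV capsule. No blood vessels run inside the lens, and its cells make most of their ATP by glycolysis. The mature lens sits in low oxygen. Around the embryonic lens the study names a vessel coat, the tunica vasculosa lentis. How much of it remained on these newborn lenses was not measured. CRE recombinase cuts and rejoins DNA at loxP sites, and p53, the transcription factor that responds to DNA damage and other stress, raises genes for cell cycle arrest and cell death such as *Cdkn1a*, which encodes the CDK inhibitor p21.

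The depth of the 6 pools ran from 22615381 to 28098059 total expected counts, and crystallin genes took 40.3% to 43.0% of them. Values are given as CPM, the expected counts scaled to a common library size after TMM adjustment, and fold changes are edgeR estimates for *Le-Cre* over *FVB/N*. Lens markers were high in every pool, with *Cryaa* (αA-crystallin) at 136799 to 152247 CPM over both lines. The pools also differed in their share of male tissue. Summed counts of 4 Y-linked genes were 132, 194 and 126 CPM in the *FVB/N* pools and 1.53, 71.9 and 0.633 CPM in the *Le-Cre* pools, and *Xist*, which is made from the inactive X chromosome of females, was 477, 0.473 and 482 CPM in *FVB/N* against 1342, 1131 and 1016 CPM in *Le-Cre*. Sex makeup therefore moved with the genotype, and a further fit held the Y-linked share as a covariate, where 2.32% of all tested genes were raised and 2.82% lowered. In bulk RNA, fewer cells of a type and less RNA per cell cannot be told apart.

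A gene was counted as past the cutoff at a change of at least 1.5-fold with a Benjamini-Hochberg adjusted p of at most 0.05 in edgeR's quasi-likelihood test. Of the 15557 tested genes, 10 passed (0.0643%), 7 of them raised (0.045%) and 3 lowered (0.0193%). Counted without the fold limit, 12 genes had an adjusted p of at most 0.05 (0.0771%), 8 raised (0.0514%) and 4 lowered (0.0257%). The 10 calls depend on all 6 pools, since 0 or 1 genes passed once any single *FVB/N* or *Le-Cre* pool was left out, while the log2 fold changes of the 10 genes kept their direction in each of those fits, and none passed when the Y-linked share was a covariate. A wider rule, an unadjusted p of at most 0.05, gave 1236 genes (7.94%), 560 raised (3.6%) and 676 lowered (4.35%), and 358 of these (2.3%) differed by at least 1.5-fold, 196 raised (1.26%) and 162 lowered (1.04%). In the text, "raised" and "lowered" at the wider rule mean this unadjusted p, and nearly all of these genes have an adjusted p over 0.05, so single genes among them are described by their values.

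**Figure D1:**
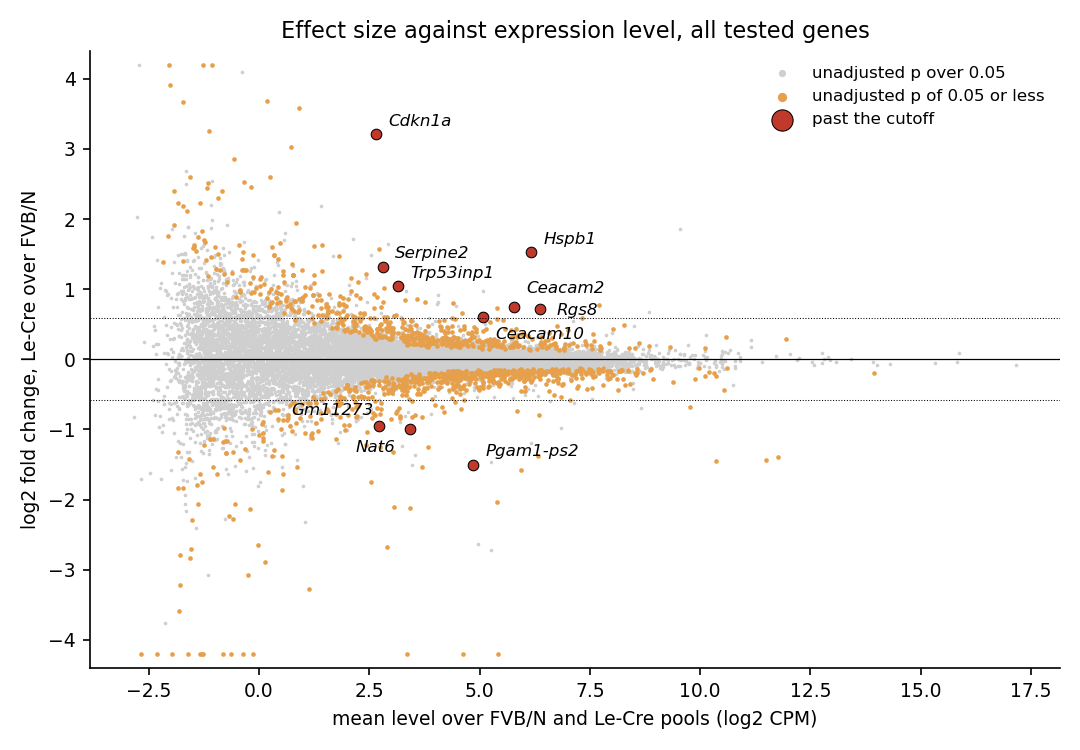
Each point is 1 of 15557 tested genes, with its mean level over the 6 compared pools on the x axis (log2 CPM) and its log2 fold change, *Le-Cre* over *FVB/N*, on the y axis; dotted lines mark 1.5-fold, and 18 genes beyond 4.2 on the log2 scale are drawn at that edge. The spread of fold changes narrows as the level rises, and the 10 genes past the cutoff, in red, lie between 1 and 7 on the log2 CPM scale outside the dotted lines.

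Most genes differed little. The central 90% of log2 fold changes ran from −0.50 to 0.60 and the central 50% from −0.12 to 0.13, with a median of −0.004. Precision followed the level of expression. The median standard error was 0.58 on the log2 scale for 2525 genes under 1 CPM, 0.23 for 5392 genes from 1 to 10 CPM, 0.09 for 6519 genes from 10 to 100 CPM and 0.07 for 1121 genes over 100 CPM, and the share of genes at an unadjusted p of at most 0.05 went from 4.08% in the lowest class to 13.02% in the highest. A change of 1.5-fold or more was measured for 35.1% of genes under 1 CPM but for 0.782% of genes from 10 to 100 CPM. The raised genes had a median size of 0.41 on the log2 scale at a median level of 10.2 CPM, and the lowered genes had smaller changes, 0.30, at a higher level, 22.03 CPM.

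Distances between the 2 lines were of the same size as distances within them. The mean Euclidean distance between log2 CPM profiles was 82.0 between an *FVB/N* and a *Le-Cre* pool (9 pairs, 71.2 to 92.7), against 84.3 among *FVB/N* pools (3 pairs, 74.5 to 92.6) and 78.7 among *Le-Cre* pools (3 pairs, 77.5 to 79.9), and *FVB/N* replicate 3 stood farthest from the others. Without Y-linked genes and *Xist* the distance between lines was 80.7, against 83.7 and 77.9 within them. Over all 9 pools, the second principal component (15.1% of the variance) held the 3 *Le-Cre* pools at 11.1 to 34.4 and the 3 *FVB/N* pools at −29.3 to −0.37, while the *P0-3.9GFPCre* pools lay from −19.4 to 9.45. Without Y-linked genes and *Xist* the second component held *Le-Cre* at 16.5 to 37.3 and *FVB/N* at −28.5 to 3.16. Gene by gene, the 3 *Le-Cre* pools were all above the 3 *FVB/N* pools for 1005 genes (6.46%) and all below them for 1093 (7.03%), together 2098 (13.5%). Chromosome 16, which carries the transgene, had a median log2 fold change of 0.003 over 465 tested genes, and 6.67% of them were at an unadjusted p of at most 0.05.

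**Figure D2:**
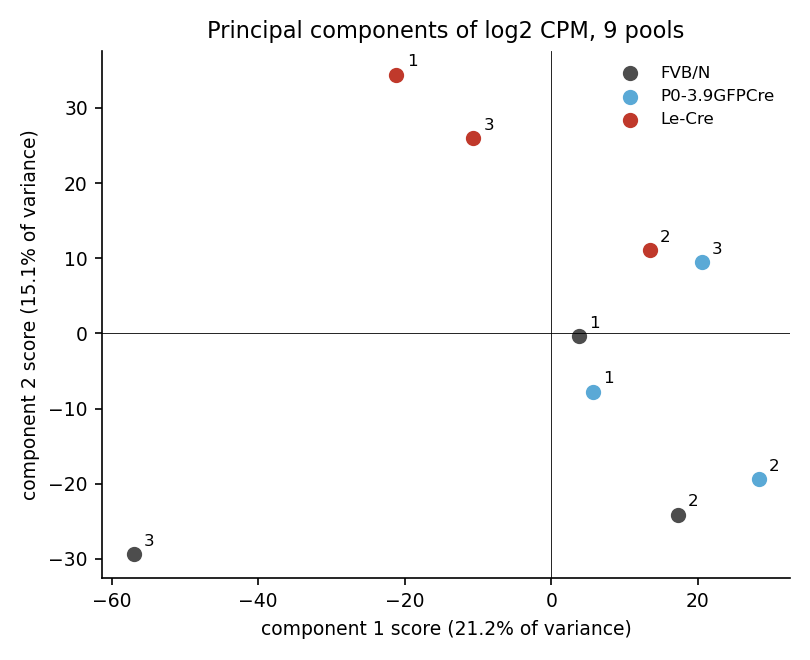
Scores of the 9 pools on the first (x axis) and second (y axis) principal components of log2 CPM over all tested genes, with the replicate number beside each point. *FVB/N* replicate 3 lies alone at −57.0 on the first component, and the *Le-Cre* pools lie above the *FVB/N* pools on the second.

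The largest change past the cutoff was in a p53 target gene. *Cdkn1a* (chr17:29090976-29100727, plus strand, GRCm38) stood at 1.29, 1.20 and 1.19 CPM in the *FVB/N* pools and at 11.4, 11.0 and 11.8 CPM in the *Le-Cre* pools. The groups did not overlap, and *Cdkn1a* rose 9.26-fold (log2 fold change 3.21, standard error 0.36, adjusted p = 0.0331). The *P0-3.9GFPCre* pools had 3.74, 1.502 and 5.75 CPM, between both groups, and the difference of *Le-Cre* from *P0-3.9GFPCre* was 1.63 on the log2 scale with an unadjusted p of 0.000395 and an adjusted p of 0.292. Per transcript length, *Cdkn1a* remained a low gene, going from 0.853 to 8.02 TPM on average. *Trp53inp1* (chr4:11156431-11174379, plus strand), a p53-induced gene whose protein acts in cell death and autophagy, had 5.90, 6.11 and 5.32 CPM in the control and 10.7, 14.0 and 10.9 CPM in *Le-Cre*. It rose 2.06-fold without overlap of the pools (log2 fold change 1.04, standard error 0.14, adjusted p = 0.0331).

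The promoter of *Cdkn1a* is shown because the gene changed most among those past the cutoff. In the RefSeq windows from 250 bases before to 50 bases after each annotated start (GRCm38.p6), a p53 response element, searched as 2 adjacent half-sites with at most 1 mismatched base and the core C and G of each half-site intact, was found in 22 of 27025 genes (0.081%). It occurred in 4 of the 33 p53 targets listed here that have a window, of which *Cdkn1a* and *Ccng1* were among the raised genes and *Gtse1* and *Rps27l* were not. The capitals mark the matched 20 bases, on GRCm38.p6 at chr17:29090923-29090952 (plus strand) and chr11:40755457-40755486 (minus strand, written 5′ to 3′ along the gene).
Cdkn1a: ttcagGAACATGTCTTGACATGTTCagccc
Ccng1: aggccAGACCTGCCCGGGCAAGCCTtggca
The match in *Cdkn1a* starts 51 bases before the annotated start and the match in *Ccng1* 195 bases before it. A match describes the letters and is not evidence of binding.

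Over the lists of known p53 targets, members for growth arrest and cell death were raised more often than all tested genes (3.6%). The lists were chosen with earlier results of these data known. They hold *Cdkn1a*, *Phlda3*, *Trp53inp1* and *Ephx1*, which the study reported as raised in the same pools. The counts therefore describe the lists and are not independent support. Of 12 targets that act in growth arrest and feedback, 5 were raised and 0 lowered, with a median log2 fold change of 0.20 against −0.004 over all tested genes. They were *Cdkn1a*, *Psrc1* (a microtubule protein, 0.92), *Sesn2* (a sestrin that restrains mTORC1, 0.48), *Zmat3* (an RNA-binding zinc finger protein, 0.43) and *Ccng1* (cyclin G1, 0.25). Of 13 targets that act in cell death, all 13 had a fold change above 0, 7 were raised and the median was 0.31. These 7 were *Eda2r*, *Phlda3*, *Trp53inp1*, *Perp*, *Aen* (an apoptosis-enhancing nuclease, 0.31), *Tnfrsf10b* (a death receptor, 0.31) and *Apaf1* (the scaffold of the apoptosome, 0.26). Among 18 targets in repair and metabolism, 2 were raised and 1 lowered, with a median of 0.05. In every fit that left out 1 pool, between 5 and 6 of the growth arrest list, between 6 and 7 of the cell death list and between 2 and 5 of the repair and metabolism list were raised, with 5 of the last without *FVB/N* replicate 2, and when the Y-linked share was held as a covariate the cell death list had 5 raised and the growth arrest list 2 raised and 1 lowered, against 2.32% and 2.82% of all tested genes. Over the 3 lists together 14 of 43 genes were raised and 1 lowered, with a median of 0.25, and 9 were raised and 2 lowered, with a median of 0.10, when the Y-linked share was a covariate. Against *P0-3.9GFPCre*, where 7.88% of all tested genes were at an unadjusted p of at most 0.05 (3.63% raised, 4.25% lowered), the same 43 genes had 10 raised in *Le-Cre* and 1 lowered. Between *P0-3.9GFPCre* and *FVB/N*, where the background was 6.81% (3.41% in each direction), they had 7 raised and 2 lowered. These contrasts share pools with the first and are not independent of it.

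*Eda2r*, a receptor of the TNF family for ectodysplasin A2, was nearly silent in *FVB/N* at 0.227, 0 and 0.246 CPM and reached 2.21, 1.72 and 2.44 CPM in *Le-Cre* (12.9-fold, log2 fold change 3.68, standard error 0.65, adjusted p = 0.0965). *Phlda3*, which restrains the kinase AKT, went from 1.44, 1.89 and 2.29 CPM to 5.69, 4.52 and 5.34 CPM (2.77-fold, adjusted p = 0.182). *Perp*, a tetraspan protein of desmosomes and an effector of p53-dependent death, had 16.8, 15.2 and 17.5 CPM against 23.8, 26.1 and 24.7 CPM (1.51-fold, adjusted p = 0.107). None of these 3 genes had overlapping pools, and none reached the adjusted threshold. With 0 CPM in 1 *FVB/N* pool, *Eda2r* could pass the filter on low counts only with pools of the other lines. *Ephx1*, the microsomal epoxide hydrolase, was 1.90-fold higher (adjusted p = 0.143) and *Gdf15*, a secreted stress cytokine, had a log2 fold change of 1.49 (adjusted p = 0.431).

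Other genes with low counts in the control lay outside the 3 p53 target lists above. *Ano3* belongs to a further list of p53 targets, compiled after values were seen, that is not described here. *Ano3*, an anoctamin membrane protein, had 0 counts in all 3 *FVB/N* pools and 0.463, 1.09 and 0.95 CPM in *Le-Cre*, which is at least 21.1-fold higher when the control is set at 3 counts over the group. *Ddit4l*, an inhibitor of mTOR signalling, had 0.567, 0.387 and 0.0409 CPM in the control and 1.99, 2.145 and 2.04 CPM in *Le-Cre* (adjusted p = 0.211). *Zak*, a stress-activated MAP kinase kinase kinase, had 5.597, 4.39 and 5.24 CPM against 9.36, 10.6 and 6.97 CPM (adjusted p = 0.195). In all 3 every *Le-Cre* pool was above every *FVB/N* pool, as in 6.46% of all tested genes. Genes were named partly for such non-overlap, so it is not separate support. *Ano3* could pass the filter on low counts only through pools of the other lines.

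Of the p53 gene itself and 7 tested regulators, 1 was raised and 1 lowered, against 3.6% and 4.35% of all tested genes, with a median of 0.07. *Trp53* had 11.3 to 11.5 CPM in the control and 12.9 to 14.2 CPM in the transgenic line (log2 fold change 0.26, unadjusted p = 0.0322, adjusted p = 0.591), and *Trp53bp1*, which encodes the damage response protein 53BP1, was the lowered member (log2 fold change −0.17, adjusted p = 0.617). *Mdm2*, which marks p53 for degradation and is counted above among its targets, had a log2 fold change of 0.14 (unadjusted p = 0.0673). Of 19 genes of the apoptosis machinery, read against the same shares, 0 were raised and 2 lowered, *Bmf* (−0.70) and *Bnip3* (−0.58). Among 5 CDK inhibitors tested, *Cdkn1a* rose while *Cdkn1c*, the inhibitor p57 that is abundant in differentiating fibre cells, had 1157 to 1208 CPM in the control and 895 to 1089 CPM in the transgenic line (log2 fold change −0.24, adjusted p = 0.439).

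**Figure D3:**
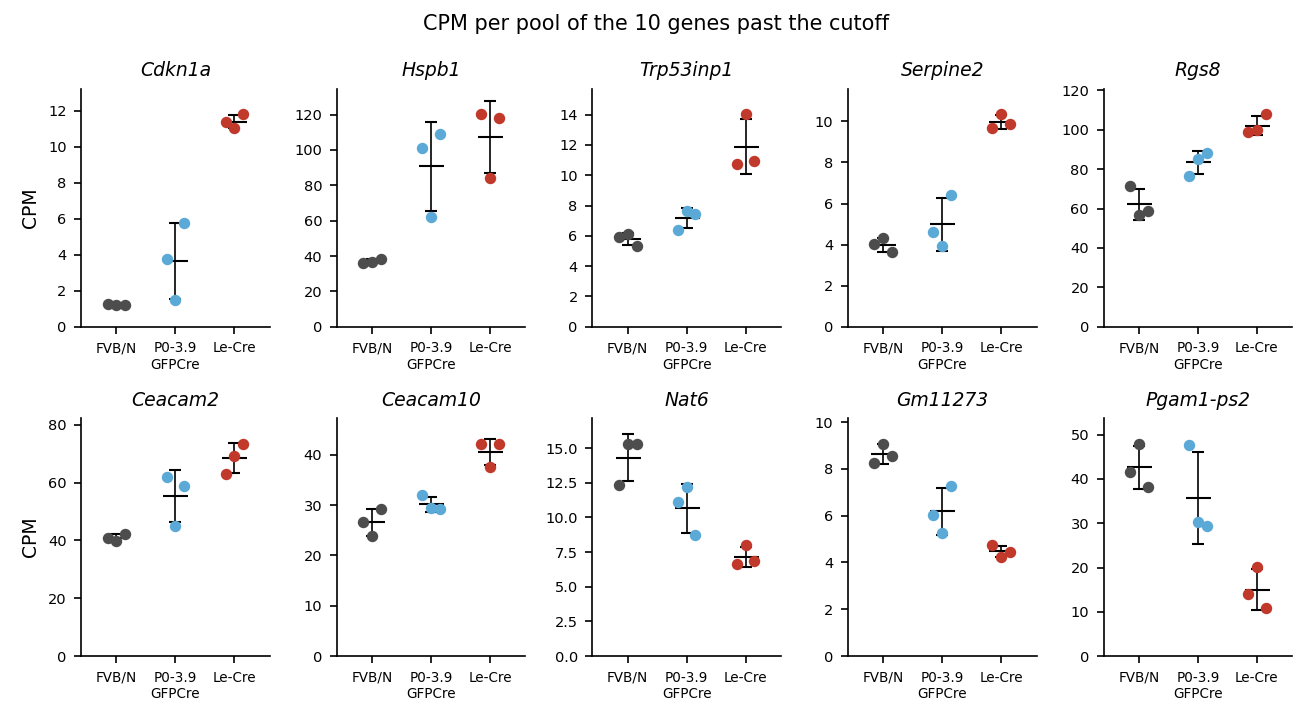
CPM on the y axis for each pool of *FVB/N*, *P0-3.9GFPCre* and *Le-Cre* (x axis) for the 10 genes past the cutoff, with points for pools and bars for the mean and SD of 3 pools. In each panel the 3 *Le-Cre* points lie on one side of the 3 *FVB/N* points, and for *Cdkn1a* they sit between 11.0 and 11.8 CPM against 1.19 to 1.29 CPM.

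One gene past the cutoff encodes a chaperone. *Hspb1* (chr5:135887919-135889563, plus strand), a small heat shock protein that keeps damaged proteins soluble, had 36.0, 36.9 and 38.6 CPM in the control and 120, 84.1 and 118 CPM in *Le-Cre*. The pools did not overlap, and *Hspb1* rose 2.89-fold (log2 fold change 1.53, standard error 0.19, adjusted p = 0.0331). The *P0-3.9GFPCre* pools, at 101, 62.2 and 109 CPM, overlapped those of *Le-Cre*, and the difference between both transgenic lines was 0.24 on the log2 scale (adjusted p = 0.796). Of 18 heat shock genes tested, 3 were raised and 0 lowered, against 3.6% and 4.35% of all tested genes, 12 had a fold change above 0 and 6 below it, and the median was 0.05. Besides *Hspb1* these were *Dnajb1*, the HSP40 partner of HSP70, at 246 to 276 CPM against 348 to 384 CPM (1.40-fold, adjusted p = 0.175), and *Hspb8*, a partner of the BAG3 chaperone complex (log2 fold change 0.59, adjusted p = 0.433). *Dnaja4* and *Dnajb4*, further HSP40 proteins from a list compiled after values were seen, were at 0.86 and 0.34 (adjusted p = 0.296 and 0.288), and that list as a whole had 4 raised and 2 lowered among 39, with a median of 0.004.

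The heat shock element is shown for the 2 small heat shock genes because 9 of the 13 listed heat shock genes with a promoter window hold it, against 2442 of 27025 genes (9.04%). The element was searched as GAANNTTC, which reads the same on both strands, and is in capitals, at chr5:135887801-135887830 (plus strand) and chr5:116422844-116422873 (minus strand) of GRCm38.p6.
Hspb1: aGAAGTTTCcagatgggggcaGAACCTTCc
Hspb8: agaagccaggaGAAGTTTCtaggctcgcga
*Hspb1* holds 2 matches within these 30 bases, the first starting 117 bases before the annotated start.

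Genes of the oxidative stress response that respond to NRF2 had 3 raised and 0 lowered members among 19, with a median of 0.05, against 3.6% and 4.35% of all tested genes. Between *P0-3.9GFPCre* and *FVB/N* the list had 4 raised and 0 lowered, with a median of 0.10 (background 3.41% each way). Between *Le-Cre* and *P0-3.9GFPCre* it had 1 raised and 3 lowered (background 3.63% and 4.25%). The largest rise in *Le-Cre* over *FVB/N* was in *Hmox1*, heme oxygenase 1, which frees iron from heme. It had 125, 141 and 198 CPM in the control and 292, 250 and 253 CPM in *Le-Cre* without overlap (1.71-fold, log2 fold change 0.78, standard error 0.16, adjusted p = 0.178), and 188 to 251 CPM in *P0-3.9GFPCre*. *Me1*, malic enzyme, and *Prdx1*, a peroxiredoxin, were at 0.27 and 0.23 on the log2 scale. Of 13 genes of the unfolded protein and integrated stress response only *Herpud1* was raised (0.29), and *Hspa5*, the endoplasmic reticulum chaperone BiP, had overlapping pools at 252 to 303 and 221 to 274 CPM.

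The other raised genes past the cutoff encode a protease inhibitor, a regulator of G protein signalling and adhesion molecules. *Serpine2* (chr1:79794197-79861180, minus strand), protease nexin-1, which inhibits thrombin and plasminogen activators, had 4.01, 4.30 and 3.64 CPM in the control and 9.68, 10.3 and 9.86 CPM in *Le-Cre*. It rose 2.50-fold (log2 fold change 1.32, standard error 0.17, adjusted p = 0.0331) with tight pools in both lines, and the *P0-3.9GFPCre* pools lay at 3.92 to 6.42 CPM (difference of *Le-Cre* 0.997 on the log2 scale, unadjusted p = 0.00011, adjusted p = 0.285). It was the only gene of 5 in the plasminogen activator system that was raised. *Rgs8* (chr1:153653025-153700323, plus strand), which speeds GTP hydrolysis by G protein α subunits, had 71.3, 56.5 and 58.6 CPM against 98.7, 99.7 and 108 CPM. It rose 1.64-fold (log2 fold change 0.72, standard error 0.09, adjusted p = 0.0331). Of 12 RGS genes tested, *Rgs10* was also raised (1.74, under 1 CPM) and *Rgs11* lowered (−0.39), against 3.6% and 4.35% of all tested genes.

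All 3 CEACAM genes that passed the filter on low counts were raised, against 3.6% of all tested genes, and 2 passed the cutoff. These are immunoglobulin-type adhesion proteins clustered on chromosome 7. *Ceacam2* (chr7:25516042-25539857, minus strand) had 41.0, 39.8 and 42.3 CPM in the control and 63.0, 69.1 and 73.5 CPM in *Le-Cre* (1.67-fold, log2 fold change 0.74, standard error 0.11, adjusted p = 0.0482). *Ceacam10* (chr7:24777206-24784657, plus strand) had 26.7, 23.9 and 29.3 CPM against 42.1, 37.6 and 42.2 CPM (1.53-fold, log2 fold change 0.61, standard error 0.09, adjusted p = 0.0482). *Ceacam1*, a close paralog of *Ceacam2*, was at 0.328 to 0.559 CPM against 0.741 to 1.39 CPM (log2 fold change 1.28, adjusted p = 0.48), and the posterior SD that RSEM gives for its count was 20.2% of the count, against 0.282% for *Ceacam2*, so *Ceacam1* is uncertain. Another 5 family members did not pass the filter on low counts. A gene with few counts can pass that filter through the line where it is higher. The count of 3 among 3 therefore describes the tested members and is not support for the family. Between *P0-3.9GFPCre* and *FVB/N* the 3 tested members also lay above 0, with a median of 0.43 and 1 raised (background 3.41%). An antisense gene overlaps *Ceacam2*, and whether reads were counted by strand is not given in the sources used here. A further gene with an adjusted p under the threshold lay just under the fold cutoff, *Stk40*, a pseudokinase, at 13.5 to 15.6 CPM against 21.5 to 22.1 CPM (1.48-fold, adjusted p = 0.0482), and the *P0-3.9GFPCre* pools were as high, at 20.2 to 22.2 CPM.

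Hypoxia-inducible and glycolytic genes lay lower in *Le-Cre* than in *FVB/N*, and hypoxia-inducible genes also lay lower in *P0-3.9GFPCre*. In the list of 21 genes of glycolysis and the polyol pathway, 0 were raised and 8 lowered, against 3.6% and 4.35% of all tested genes, 19 of 21 had a fold change below 0, and the median was −0.21. A list of targets of the hypoxia-inducible factors (HIF), compiled after the values were seen, had 22 of its 45 tested genes lowered and 2 raised (*P4ha2* and *Bhlhe40*, 0.19 and 0.31), with a median of −0.19. The 2 lists share 12 genes, and of the 33 HIF targets outside the glycolysis list 14 were lowered and 2 raised, with a median of −0.18. None of these genes passed the cutoff. The members of the HIF list were chosen with these values known, so its counts describe the list and are not independent support. When 1 pool was left out, the glycolysis list had 6 to 11 lowered genes and the HIF list 18 to 24, and when the Y-linked share was a covariate they had 9 and 14, against 2.82% of all tested genes. Between *P0-3.9GFPCre* and *FVB/N* the HIF list had 0 raised and 11 lowered, against 3.41% of all tested genes in each direction. The glycolysis list had 1 raised and 2 lowered in that contrast, and the 33 HIF targets outside it had 0 and 10.

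*Bnip3*, a mitochondrial receptor for mitophagy and a classical HIF target, had 158, 147 and 170 CPM in the control and 104, 110 and 106 CPM in *Le-Cre*. The pools did not overlap (1.49-fold lower, log2 fold change −0.58, standard error 0.09, adjusted p = 0.0592). *Pdk1*, the kinase that shuts pyruvate out of mitochondria, had 115, 118 and 97.9 CPM against 85.2, 79.0 and 77.1 CPM (log2 fold change −0.46, adjusted p = 0.198). *P4ha1*, a collagen prolyl hydroxylase subunit, had 734, 713 and 773 CPM against 566, 598 and 618 CPM (−0.32, adjusted p = 0.214). In each of these 3 genes every *Le-Cre* pool was below every *FVB/N* pool. The *P0-3.9GFPCre* pools lay at 103 to 131, 77.9 to 95.7 and 590 to 679 CPM for the same 3 genes, and the differences of *Le-Cre* from them were −0.09, −0.06 and −0.07 on the log2 scale, with adjusted p from 0.846 to 0.921.

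In 22 of the 45 HIF targets every *Le-Cre* pool was below every *FVB/N* pool, against 7.03% of all tested genes. This count too comes from a list chosen with the values known. Smaller differences of the same direction include *Kdm3a* (a histone demethylase, −0.23), *Narf* (−0.24), *Mgarp* (a mitochondrial transport protein, −0.28), *Ndrg1* (−0.28), *Slc16a3* (the lactate exporter MCT4, −0.31), *Vegfa* (−0.26) and *Bnip3l* (−0.16). *Mgarp*, one of the most abundant of them, had 1021 to 1076 CPM in the control and 803 to 943 CPM in *Le-Cre*. *Hif1a* and *Epas1*, which encode the α subunits of HIF, had log2 fold changes of −0.03 and −0.11 (unadjusted p = 0.707 and 0.759).

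**Figure D4:**
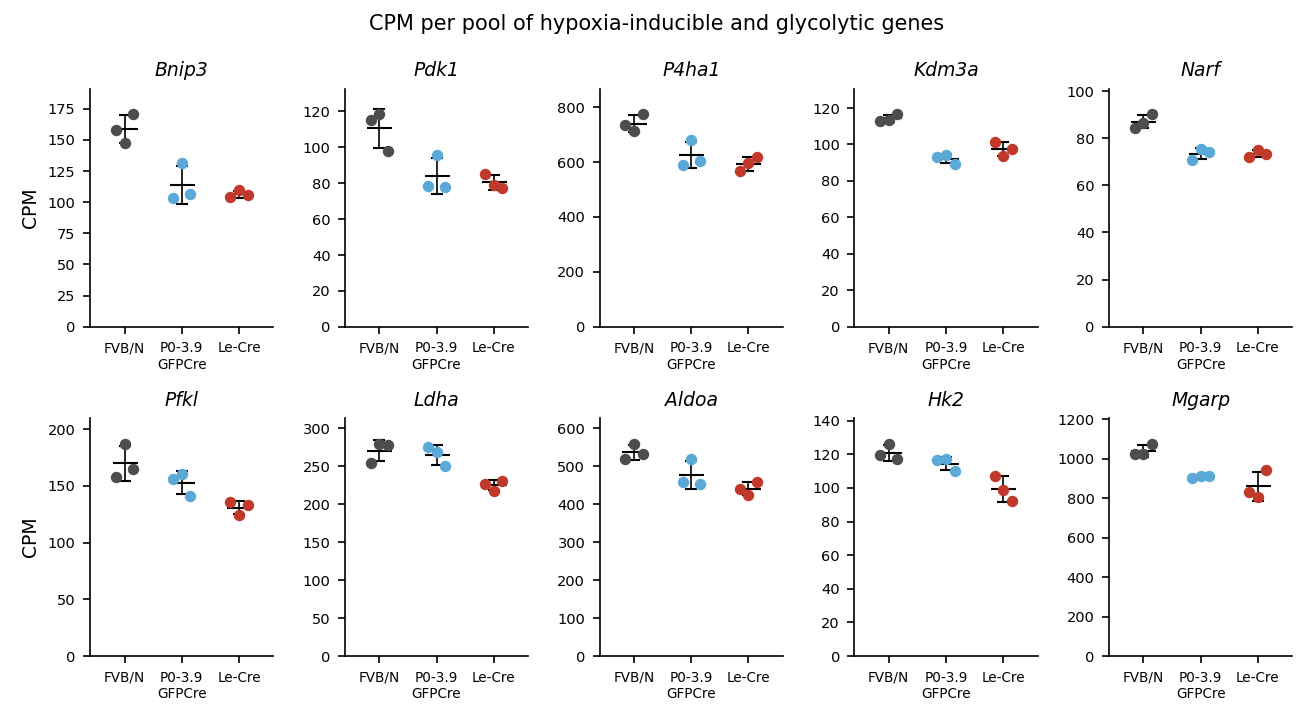
CPM on the y axis for each pool of *FVB/N*, *P0-3.9GFPCre* and *Le-Cre* (x axis) for 10 HIF targets and glycolytic genes, with points for pools and bars for the mean and SD of 3 pools. In each panel the *Le-Cre* points lie below the *FVB/N* points, from 104 to 110 CPM against 147 to 170 CPM for *Bnip3*.

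In glycolysis the lowered genes span the pathway. They were *Hk2* (hexokinase, −0.28), *Gpi1* (−0.17), *Pfkl* (liver-type phosphofructokinase, −0.38), *Aldoa* (aldolase A, −0.28), *Tpi1* (−0.20), *Gapdh* (−0.68), *Pkm* (pyruvate kinase, −0.24) and *Ldha* (lactate dehydrogenase A, −0.27). *Pfkl* had 158, 187 and 164 CPM in the control and 135, 124 and 133 CPM in *Le-Cre* (adjusted p = 0.186), and *Ldha* had 255, 280 and 278 CPM against 227, 218 and 230 CPM (adjusted p = 0.24). *Gapdh* varied most, with 958, 1199 and 1048 CPM against 455, 634 and 908 CPM (adjusted p = 0.345), and many processed copies of it exist in the genome. For *Pfkl* and *Ldha* the difference of *Le-Cre* from *P0-3.9GFPCre* was −0.22 and −0.24 (unadjusted p = 0.0158 and 0.0027, adjusted p = 0.525 and 0.393). In that contrast 6 of the 21 glycolysis genes were at an unadjusted p of at most 0.05 on the lower side, against 4.25% of all tested genes, and 2 of the 33 HIF targets outside glycolysis.

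The HIF recognition core is shown for 2 of these genes, as examples of the lowered members. The 5-base form ACGTG, on either strand, occurred in 12 of the 18 lowered HIF targets that have a promoter window, in 25 of 38 of the whole list in 5886 of 27025 genes (21.8%) and in 3066 of the 10514 tested genes with a window (29.2%). Only these 10514 of the 15542 tested symbols have a window, so the shares describe part of the tested genes. Counting the form GCGTG as well, which is frequent in CpG-rich promoters, it was 16 of 18, against 12628 of 27025 (46.7%) of all genes and 67.2% of the tested genes with a window. Capitals mark ACGTG or its reverse complement, which overlap in CACGTG, in windows of GRCm38.p6 at chr7:138909597-138909626 (minus strand) and chr10:59323268-59323297 (plus strand).
Bnip3: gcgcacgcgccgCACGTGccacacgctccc
P4ha1: tgtgacagagcgCACGTagcgagggctgcg

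The 3 lowered genes past the cutoff each carry a limit on how their reads can be assigned. *Nat6* (chr9:107578887-107584050, plus strand), named *Naa80* in newer annotation and encoding the acetyltransferase of actin, had 12.3, 15.3 and 15.3 CPM in the control and 6.62, 7.996 and 6.87 CPM in *Le-Cre*. It fell 1.995-fold (log2 fold change −0.997, standard error 0.15, adjusted p = 0.0482), with *P0-3.9GFPCre* at 8.71 to 12.2 CPM. It overlaps *Hyal1* and *Hyal3* on the same strand, which encode hyaluronidases and were lower as well. *Hyal1* had 15.4, 23.6 and 20.9 CPM against 8.82, 8.43 and 7.78 CPM (2.39-fold lower, adjusted p = 0.169), *Hyal3* had a log2 fold change of −1.002 (adjusted p = 0.391), and *Hyal2*, which does not overlap them, was at 0.16 (adjusted p = 0.8). The 3 overlapping genes are 1 locus and not 3 independent changes. *Cd44*, a hyaluronan receptor, was at 50.5 to 61.2 against 70.0 to 76.3 CPM (log2 fold change 0.36, adjusted p = 0.389).

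*Pgam1-ps2* (chr7:27469771-27470535, minus strand), a processed pseudogene of the glycolytic enzyme phosphoglycerate mutase 1, had 41.6, 48.0 and 38.2 CPM in the control and 14.1, 20.05 and 10.9 CPM in *Le-Cre*. It fell 2.83-fold (log2 fold change −1.503, standard error 0.23, adjusted p = 0.0497), and its posterior SD was 11.5% of its count. The parent gene *Pgam1*, at 448 CPM in the control and 411 CPM in *Le-Cre*, had a log2 fold change of −0.13 (adjusted p = 0.647). *Gm11273* (chr13:21501029-21501418, minus strand), annotated as protein-coding, had 8.24, 9.08 and 8.56 CPM against 4.73, 4.25 and 4.43 CPM. It fell 1.93-fold (log2 fold change −0.95, standard error 0.14, adjusted p = 0.0482), with a posterior SD of 18.3% of its count.

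One matrix gene had an adjusted p under the threshold. *Thbs1*, thrombospondin 1, a matrix protein that activates TGF-beta and also a listed p53 target, had 142, 143 and 125 CPM in the control and 89.7, 94.4 and 97.7 CPM in *Le-Cre*. It fell by 0.54 on the log2 scale (standard error 0.08, adjusted p = 0.0497), which is 1.45-fold and under the fold cutoff, while the *P0-3.9GFPCre* pools stayed at 128 to 152 CPM (difference of *Le-Cre* −0.54, unadjusted p = 3.7e-05, adjusted p = 0.2). In a list of 22 genes for collagen cross-linking and matrix assembly, compiled after the values were seen, 11 were lowered and 1 raised, against 4.35% and 3.6% of all tested genes, with a median of −0.20. Beside *Thbs1* they included *Scube3* (72.0, 74.9 and 76.4 against 59.2, 54.1 and 56.9 CPM, adjusted p = 0.0547), *Emilin3* (an elastin-interface protein, −0.50, adjusted p = 0.0965), *Loxl2* (a lysyl oxidase that cross-links collagen, −0.40, adjusted p = 0.166), *Matn2* (−0.59, adjusted p = 0.24) and *Megf6* (−0.44, adjusted p = 0.24). The list had 10 to 11 lowered genes when 1 pool was left out and 7 when the Y-linked share was a covariate. Between *P0-3.9GFPCre* and *FVB/N* the list had 0 raised and 5 lowered (background 3.41% each way). Between *Le-Cre* and *P0-3.9GFPCre* it had 1 raised and 7 lowered (background 3.63% and 4.25%). Its members were chosen with these values known, so these counts describe the list and are not independent support.

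In the lens capsule list fewer members were lowered. Of 20 capsule and integrin genes 0 were raised and 4 lowered, with a median of −0.06, against 3.6% and 4.35% of all tested genes. Between *P0-3.9GFPCre* and *FVB/N* 0 were raised and 3 lowered. In *Le-Cre* over *FVB/N* the 4 were *Col4a1*, *Col4a2*, *Col4a6* and *Hspg2* (perlecan), by −0.20 to −0.13 on the log2 scale. The count was 1 without any one of *FVB/N* replicates 2 and 3 and *Le-Cre* replicates 1 and 2, 2 to 4 without any other pool, and 1 when the Y-linked share was a covariate. *Pdgfra*, the receptor through which PDGF drives lens epithelial division, had 157 to 177 CPM in the control and 123 to 134 CPM in the transgenic line (log2 fold change −0.40, adjusted p = 0.169), without overlap, while the epithelial transcription factor *Foxe3* had overlapping pools at 23.8 to 38.4 and 17.7 to 30.2 CPM.

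Genes of mitosis lay higher in *Le-Cre*, as did *Cdkn1a*. In the mitosis list 7 of 19 genes were raised and 0 lowered, against 3.6% and 4.35% of all tested genes, 18 of 19 had a fold change above 0, and the median was 0.24. *Cdk1*, the mitotic kinase, had 22.2, 21.6 and 25.6 CPM in the control and 30.1, 29.1 and 31.2 CPM in the transgenic line (log2 fold change 0.38, standard error 0.09, adjusted p = 0.236). *Ccna2* (cyclin A2, 0.32), *Bub1* (a spindle checkpoint kinase, 0.59), *Top2a* (0.26), *Cenpe* (0.31), *Cenpf* (0.27) and *Birc5* (survivin, 0.29) were the other raised members. The count was 3 without *FVB/N* replicate 2, 11 without *FVB/N* replicate 3 and 1 when the Y-linked share was a covariate, where the median was 0.07, so the mitosis count differed with the control pools used and with the term for sex makeup. The *P0-3.9GFPCre* pools lay on the same side of the control, with 17 of the 19 genes above 0, a median of 0.18, 2 raised and 1 lowered, and *Le-Cre* differed from them by a median of 0.06, with 1 raised. DNA replication genes had 2 raised of 18 (*Cdc6* and *Rrm2*) and a median of 0.14, and the count was 1 to 4 with 1 pool left out (4 without *FVB/N* replicate 3 or *P0-3.9GFPCre* replicate 2) and 1 when the Y-linked share was a covariate.

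Growth signalling genes gave scattered values, to be read against 3.6% of all tested genes raised and 4.35% lowered. Immediate early genes, which are induced within minutes of a stimulus, had 4 raised of 14 (*Egr1*, *Fosl2*, *Zfp36* and *Junb*, 0.62 to 0.92), all at 4.07 CPM or less in every *Le-Cre* pool, and the count was 1 without *FVB/N* replicate 3 or *Le-Cre* replicate 3 and 2 when the Y-linked share was a covariate. Targets of FGF and ERK signalling, which drives fibre differentiation, had 4 raised of 13, *Dusp4* (7.82 to 11.3 against 15.7 to 18.7 CPM, adjusted p = 0.222), *Etv4*, *Etv5* and *Dusp6*, with a median of 0.02. That count was 2 to 3 with any 1 pool left out, 2 with the 6 compared pools alone and 1 when the Y-linked share was a covariate. Between *P0-3.9GFPCre* and *FVB/N* the FGF and ERK list also had 4 raised and the immediate early list 2, against 3.41% of all tested genes. Between *Le-Cre* and *P0-3.9GFPCre* both lists had 0 raised and 0 lowered. Among 16 imprinted growth genes 4 were raised and 3 lowered in *Le-Cre*, and 3 were raised and 2 lowered between *P0-3.9GFPCre* and *FVB/N*. The growth factor *Igf2* had 110, 109 and 113 CPM in the control and 148, 153 and 142 CPM in *Le-Cre* without overlap (1.33-fold, adjusted p = 0.0965), and *Igf2r*, *Mest* and *Plagl1* were at 0.23 to 0.47 while *Meg3*, *Nnat* and *Cdkn1c* were at −0.69 to −0.24. The BMP and TGF-beta, Notch and Wnt lists had 1 raised and 3 lowered of 18, 2 and 2 of 12, and 1 and 2 of 16.

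The lists of lens identity genes had medians a little below 0. Their counts are to be read against 3.6% of all tested genes raised and 4.35% lowered. Of 18 lens transcription factors 0 were raised or lowered, with a range of −0.27 to 0.07 and a median of −0.07. *Pax6*, whose promoter drives the transgene, had 126 to 135 CPM in the control and 125 to 138 CPM in the transgenic line (log2 fold change −0.01, standard error 0.06), and *Prox1* was at −0.01 (standard error 0.06). Among 16 crystallins *Crygs* was raised (0.29) and *Crybb3* lowered (−0.19), with a median of −0.04 (adjusted p = 0.628 and 0.591). When the Y-linked share was a covariate 0 crystallins were raised and 4 lowered, against 2.32% and 2.82% of all tested genes. In that fit 15 of 16 were below 0 and the median was −0.15. Of 15 genes of fibre membranes and beaded filaments, 12 had a fold change below 0 and 2 were lowered, *Epb41* (−0.23) and *Lgsn*, with a median of −0.09. In 5 of the 15 every *Le-Cre* pool was below every *FVB/N* pool, against 7.03% of all tested genes. *Mip*, the aquaporin of fibre membranes, and *Bfsp1*, a beaded filament protein, were at −0.04 and −0.003 (standard errors 0.07 and 0.06). Of 17 genes of fibre denucleation 3 were lowered, *Dnase2b*, the DNase that clears fibre nuclei (121 to 147 against 97.3 to 105 CPM, adjusted p = 0.356), *Ctsb* and *Bnip3l*. *Lgsn*, a lens-specific member of the glutamine synthetase family, had 0.34, 5.29 and 0.164 CPM in the control and 0.142 to 0.317 CPM in *Le-Cre*, with *FVB/N* replicate 2 far above every other pool of both lines.

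**Figure D5:**
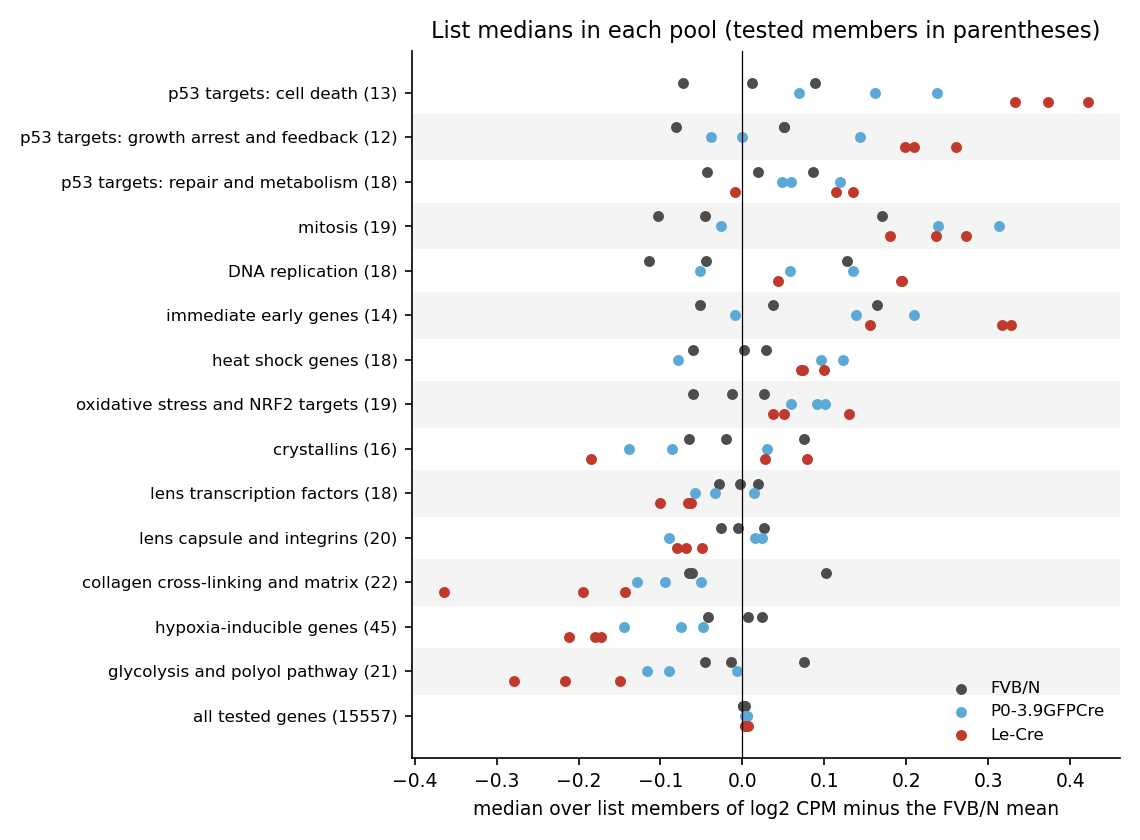
For each gene list (y axis, tested members in parentheses) and each pool, the median over members of log2 CPM minus the *FVB/N* mean (x axis). The *Le-Cre* pools lie from 0.33 to 0.42 for p53 targets in cell death and from −0.21 to −0.17 for hypoxia-inducible genes, and all tested genes lie near 0.

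Further lists had few called members, to be read against 3.6% of all tested genes raised and 4.35% lowered. The lens epithelium list had 2 raised (*Cdkn1a* and *Aqp1*, a water channel) and 1 lowered (*Pdgfra*) of 14, and cadherins, catenins and ephrins had 0 raised and 1 lowered (*Ncam1*, −0.28) of 13, with medians of −0.10 and −0.11. The hyaluronan list had 1 raised and 3 lowered of 9, and the sodium channel list 1 and 2 of 10. The lowered hyaluronan members include *Nat6* and *Hyal1*, which overlap at 1 locus and are not independent changes. The interferon and DNA-sensing list had 1 raised of 14, *B2m*, at 6.84 to 7.22 against 8.05 to 9.53 CPM (log2 fold change 0.35, adjusted p = 0.553). Cytosolic ribosomal proteins had 1 raised and 5 lowered of 83, the respiratory chain 2 and 2 of 76, the proteasome 1 and 0 of 35, and cholesterol synthesis 0 and 1 of 21. *Scn11a*, a voltage-gated sodium channel, had 10.6, 13.1 and 11.4 CPM against 5.83, 7.72 and 6.02 CPM (log2 fold change −0.84, adjusted p = 0.236), *Kcnj10*, an inward-rectifier potassium channel, had 1.52 to 1.63 against 3.10 to 4.57 CPM (1.26, adjusted p = 0.168), and *Sbspon*, a secreted matrix protein, had 0.215 to 0.303 against 1.40 to 1.67 CPM (2.45, adjusted p = 0.222).

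Markers of tissues that could adhere to a dissected lens were low and did not follow the groups. Blood, endothelium, macrophage, retina, pigment cell and surface epithelium lists had 0 genes raised and 0 lowered among 5, 9, 4, 7, 4 and 2 genes that passed the filter. Over all tested genes the shares were 3.6% and 4.35%. Summed CPM over each list in *FVB/N* and *Le-Cre* was 45.0 to 88.9 and 45.3 to 120 for blood, 116 to 124 and 109 to 132 for endothelium, 1.4 to 3.3 and 2.3 to 3.8 for macrophages, 8.5 to 10.6 and 5.8 to 15.1 for retina, and 2.3 to 19.9 and 3.1 to 10.6 for pigment cells. The mesenchyme list, at 37.5 to 49.0 and 32.9 to 40.7 CPM, had 1 of 7 genes lowered, *Col1a1*, which was under 1 CPM in every pool. X-linked genes that escape inactivation were higher in *Le-Cre*, where 3 of 5 were raised (*Kdm6a*, *Eif2s3x* and *Ddx3x*, 0.20 to 0.43), against 3.6% of all tested genes. All 5 had every *Le-Cre* pool above every *FVB/N* pool, against 6.46% of all tested genes, and the Y-linked genes were lower. All 10 genes past the cutoff kept their direction when the Y-linked share was a covariate, with log2 fold changes of 2.71 for *Cdkn1a* and 1.07 for *Hspb1*, although none then passed the cutoff.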

How the data were processed

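RNA was taken from 9 pools of newborn lenses, 3 of each line, with a minimum RNA integrity number of 8, and read single-end for 50 cycles. The authors trimmed reads with Trimmomatic 0.36, mapped them to GRCm38 by GSNAP and obtained gene values from RSEM 1.3.0, which divides a read that maps to several genes among them, and the annotation is not given in the sources used here. Per the file headers, the deposited tables hold the expected count of each gene, the TPM (scaled per transcript length within a pool) and RSEM's posterior standard deviation of the count, which is printed as a percent of the count where reads are shared between genes. Expected counts were rounded to whole numbers. Depth was 20670968 to 28098059 per pool.

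Genes were named with mouse GENCODE release M21 (47310 of 47729 identifiers matched), filtered with filterByExpr, scaled with TMM and fitted with edgeR 4.0.16 (R 4.3.3) by quasi-likelihood, with 1 coefficient per line over the 9 pools and Benjamini-Hochberg adjustment over 15557 genes. The adjusted p-values are those of this model, and each standard error was derived from the log2 fold change and its F statistic. Each pool held lenses of 3 mice, and p-values measure the spread between pools. The code was tested on simulated data. Principal components and distances used log2 CPM with a prior count of 2.

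The comparison and the gene lists were chosen with earlier results of these data known, and the lists of hypoxia-inducible genes, DnaJ genes and matrix genes were compiled after values were seen. The text names every gene past the cutoff, genes with non-overlapping pools and the smallest unadjusted p (20 in each direction were eligible, leaving out pseudogenes and unnamed genes), list members at an unadjusted p of at most 0.05 or that define the list, and the genes the study lists for *Le-Cre*. *Hif1a*, *Epas1*, *Pgam1*, *Hyal2*, *Hyal3*, *Gtse1* and *Rps27l* were named after their values were seen.

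Alternatives were DESeq2 size factors, DESeq2 1.42.0 with and without a prior on fold changes (the authors' methods name version 1.10.1), no filter, a mean of at least 10 counts, the 6 compared pools alone, a replicate block, the Y-linked share as a term, and each pool left out in turn. Of the gene lists, that of DNA damage sensing and repair genes is not reported here, and a list of further p53 targets, compiled after values were seen, is not described.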

Additional observations from a re-analysis of the deposited data

How the results depend on the processing

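The number of genes past the cutoff was sensitive to the model, while the 10 genes past the cutoff kept their direction in each alternative. Members named only to describe a list were not followed one by one. Among list medians, those of crystallins, imprinted genes, FGF and ERK targets and p53 targets in repair and metabolism, all close to 0, changed sign in some alternatives. The raised count (7) and the lowered count (3) became 35 and 19 with DESeq2 without a prior on fold changes, which called all 10 genes, and 54 and 77 with no filter on low counts, which also called all 10. When the Y-linked share was a covariate, 0 were raised and 0 lowered, and the genes at an unadjusted p of at most 0.05 went from 560 raised and 676 lowered to 361 and 438. The lowered count was 0 with a mean of at least 10 counts and 5 with only the 6 compared pools. Leaving out 1 pool gave 0 to 8 raised and 0 to 3 lowered genes. Of these fits, the 6 without an *FVB/N* or *Le-Cre* pool gave at most 1 call, and the fit without *P0-3.9GFPCre* replicate 1 gave 1 lowered gene. The cause of these shifts was not tested.

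No source used here says that the replicate numbers pair pools. The correlation of residuals averaged 0.030 between same-numbered pools (−0.10 to 0.12 over 9 pairs) and −0.015 between others (−0.17 to 0.12 over 18 pairs). Residuals were centred within each line, which ties both averages to each other, so they cannot decide whether pools were paired. With the replicate number as a block 2 genes, *Cdkn1a* and *Hspb1*, were raised and 0 lowered.

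Over all alternatives, gene values, 1 per gene followed and alternative, kept their side of the threshold in 1642 cases, lost it in 93 and gained it in 49. Only the 10 called genes could lose it, and most of the 1642 are uncalled genes that stayed uncalled. Each fit without an *FVB/N* or *Le-Cre* pool lost 9 or 10 calls, and the fit with the Y-linked share lost 10. List medians moved by less than the spread of pools in 774 cases and by more in 59. With 3 pools per line, genes under 1 CPM have a median standard error of 0.58 on the log2 scale, so small differences there were not detectable.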
